A study of Mus musculus with 6 samples.

Results

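The genes described here are 35 mouse genes of lipogenesis, triglyceride synthesis and the response to liver X receptors (LXR), taken from a list of gene symbols that uses no measured value as a criterion, although it was drawn up with earlier results of these data known. All 35 were found by their Ensembl identifier among the 55487 gene rows of the count tables. They were sorted by role into 8 steps, from the transcription factors to the assembly of triglyceride. RNA sequencing was carried out on hepatocytes isolated from the liver of adult mice, 6 to 8 weeks old, that were either homozygous for AEG-1-C75S or wild type (WT). Both genotypes came from crosses between heterozygotes, RNA was taken 48 h after isolation, and every sample carries the treatment label Control. AEG-1 is a membrane protein of the endoplasmic reticulum encoded by *Mtdh*, and C75S puts a serine in the place of the cysteine that carries its palmitoyl group. There were 3 libraries per genotype. Strain and sex are not in the labels, and neither is the number of mice behind the libraries. Here n is a number of libraries, and p-values measure the spread between libraries, which may be technical.

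Hepatocytes make fatty acids from cytosolic acetyl-CoA, which comes largely from mitochondrial citrate, with reducing power from NADPH. The new chains are elongated and desaturated on the endoplasmic reticulum and then esterified stepwise to a glycerol backbone. The program is driven at the level of transcription by SREBP-1c (from *Srebf1*), which insulin and LXR induce, and by the glucose-responsive factor ChREBP (from *Mlxipl*). LXR is a receptor for oxysterols that also induces cholesterol export.

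The libraries held 16944723 to 21044292 counts on genes, and C75S replicate 1 was the shallowest. Hepatocyte markers were abundant in all of them: 8 markers summed to between 70551 and 86916 CPM (counts scaled to library size). Of the adipocyte markers, *Lep* and *Retn* had no count in any library, *Adipoq* and *Plin1* stayed at or below 0.0574 CPM, and *Fabp4* lay between 9.77 and 12.1 CPM. The 5 cholangiocyte markers summed to 122 to 133 CPM in WT and, without overlap, to 144 to 197 CPM in C75S. Of the 4 that were tested, 3 had a positive and 1 a negative log2 fold change. Only *Krt19* was called higher (edgeR adjusted p = 0.00151), where 1.74% of all genes tested were. *Epcam*, at or below 0.569 CPM in every library, was not tested. The sums of Kupffer cell, endothelial and stellate cell markers overlapped between genotypes and none of these markers was called. Of 5 tested endothelial markers, 3 (*Pecam1*, *Lyve1* and *Kdr*) were higher in every C75S library, against 9.01% of all genes tested. The log2 fold changes of the 5 ran from -0.0864 to 0.845, with 4 positive and 1 negative. Their median was 0.69, larger than the log2 fold change of any of the 35 genes that was tested. The WT levels of *Pecam1*, *Lyve1* and *Kdr* were only 0.56 to 1.97 CPM. The part of these differences in the results that follow was not tested, and in bulk RNA fewer cells of a type and less RNA per cell cannot be told apart. *Mtdh* itself measured 197 ± 5.17 CPM in WT and 199.6 ± 10.5 CPM in C75S (SD, n = 3 each), which does not test the genotype labels because a gene count does not read the codon.

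Of the 35 genes, 31 passed the filter on low counts and were tested together with all other genes (12741 in all) in edgeR's quasi-likelihood test. In C75S the desaturases *Fads2*, *Scd1* and *Scd2* and the carboxylase cofactor *Mid1ip1* rose, and the transcription factor *Mlxipl* and the phosphatidate phosphatase *Lpin2* fell. These 6 of 31 genes passed a Benjamini-Hochberg adjusted p-value of 0.05, against 3.11% of all genes tested. Among all genes 1.74% were called higher and 1.37% lower, against 4 and 2 of the 31. Among the called genes the changes were small, from a 13.4% fall for *Lpin2* (a fold change of 0.866) to a 24.5% rise for *Fads2*. The median log2 fold change over the 31 was 0.00, as it was over all genes. Its median size, leaving out the sign, was 0.0884 over the 31 and 0.0879 over all genes. Most of the 31 lay above the median level of all genes tested, 23.1 CPM, and higher counts make a small change easier to call. The part of level in the share called was not tested. The 6 calls became 3 without C75S replicate 2, and the 2 lower calls became 0 without C75S replicate 2 or WT replicate 3. The lower calls numbered 1 in the fits that dropped WT replicate 2 or either of C75S replicates 1 and 3, and the 4 higher calls became 2 when WT replicate 1 was dropped.

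**Figure D1:**
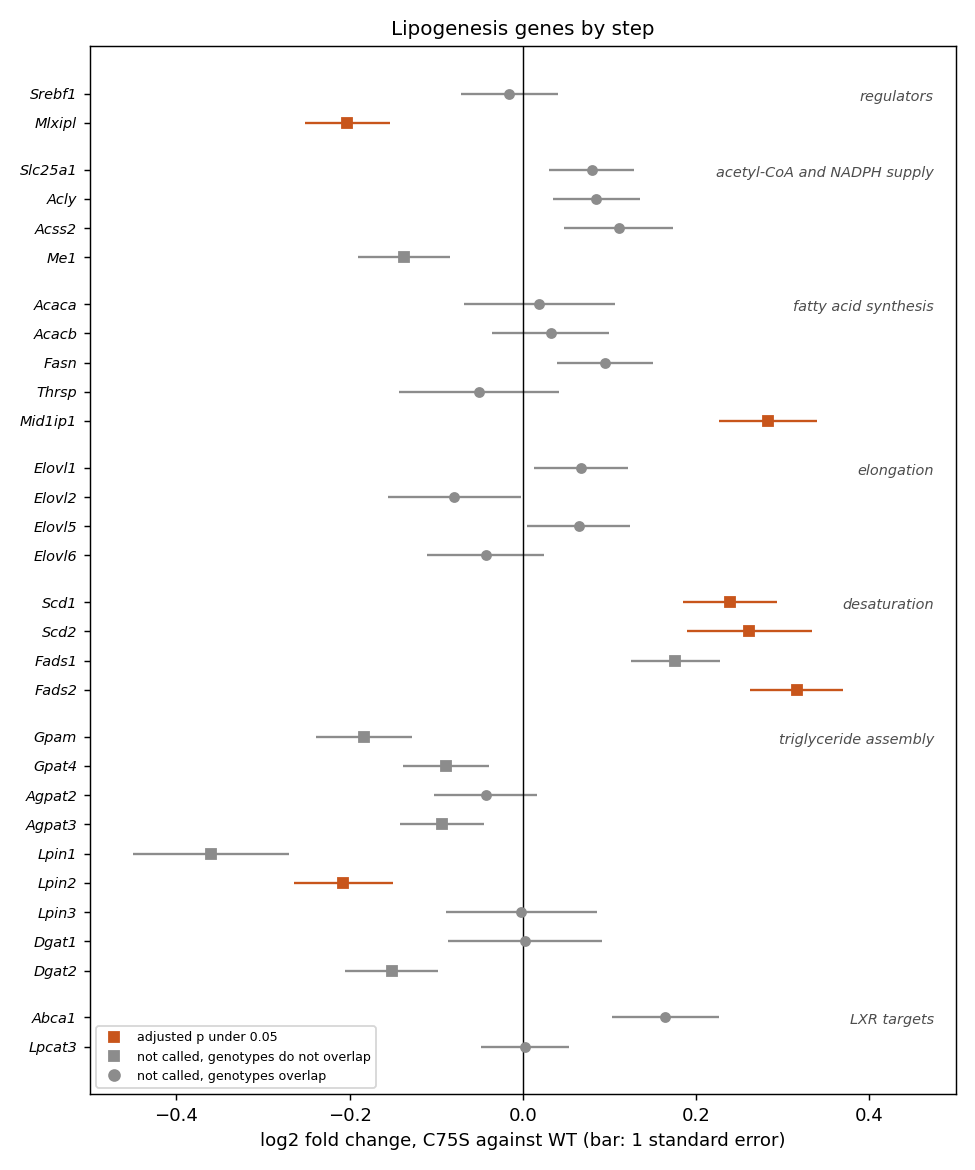
Log2 fold change of C75S against WT (x axis, bars of 1 standard error) for 30 tested genes, grouped by step; *Pnpla3*, whose standard error is 0.44, is not drawn. The desaturases all lie to the right of 0, and the genes of triglyceride assembly lie to the left of it or on it.

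The steps differed in direction. All 4 desaturases had a positive log2 fold change (median 0.25) and no overlap between genotypes, with every C75S library above every WT library. Of the 9 tested genes of triglyceride assembly, 8 had a negative one (median -0.09), and in 6 every C75S library lay below every WT library. Over all genes tested, such a separation was seen in 18.0%, 9.01% with C75S higher and 8.96% with C75S lower. The genes of acetyl-CoA supply, chain synthesis and elongation, 13 of them tested, held 1 call between them, against 3.11% of all genes tested. With so few genes, a single call makes the share.

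**Figure D2:**
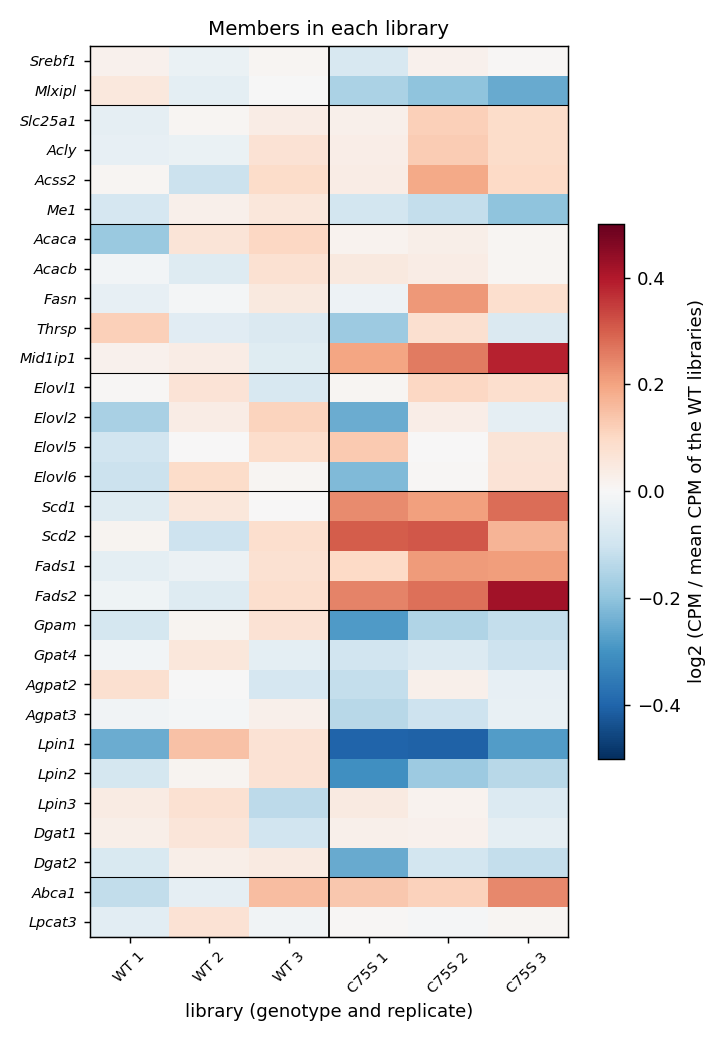
Each cell gives the log2 of a gene's CPM over the mean of the WT libraries, for 30 genes (rows, steps parted by lines) and the 6 libraries (columns). The block of desaturases is above the WT mean in all C75S libraries, and *Gpam*, *Lpin1*, *Lpin2* and *Dgat2* are below it.

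Levels were compared between genes per length, as RPKM over the summed exon length of each gene. *Scd1* was the highest of the 35, at 242 ± 10.1 RPKM in WT and 285 ± 7.57 RPKM in C75S (SD, n = 3 each). The citrate carrier *Slc25a1* came next at 104 ± 2.93 RPKM in WT, followed by *Gpam* (77.8 ± 4.34 RPKM), *Lpin2* (67.5 ± 3.77 RPKM) and *Fads2* (56.6 ± 2.99 RPKM). In C75S, *Fads2* ranked above *Gpam*, at 70.5 ± 4.55 RPKM against 68.5 ± 4.08 RPKM, a gap smaller than either SD. From *Fads1* (40.0 RPKM) down to *Lpcat3* (36.9 RPKM) in WT, with *Acly*, *Mid1ip1* and *Mlxipl* between them, neighbours differed by less than their SD. *Fasn* stood in the middle of the order at 21.1 ± 0.67 RPKM in WT. *Acaca* was at 1.43 ± 0.15 RPKM and *Pnpla3* at 0.44 ± 0.14 RPKM in WT. With the longest transcript as the length, *Scd1* stayed the highest, but *Lpin2* came next at 146 RPKM in WT, ahead of *Slc25a1* at 135 RPKM, and 8 of the 10 highest genes were the same.

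**Figure D3:**
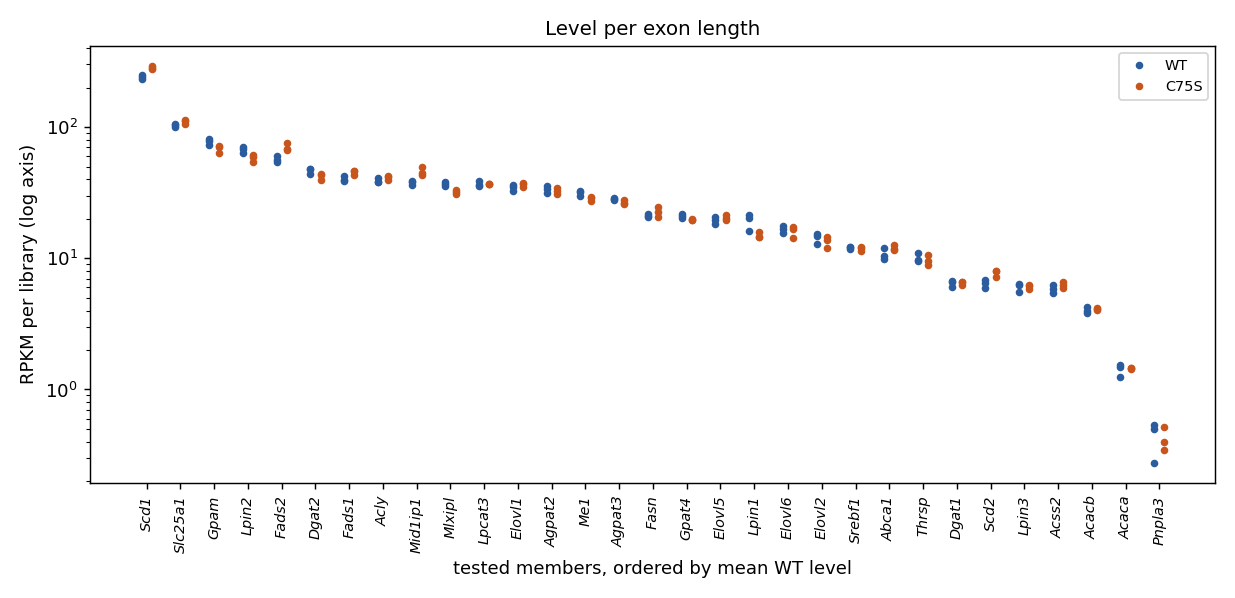
Level per exon length (RPKM, log axis) in each library for the 31 tested genes, ordered by the WT mean. The levels fall from 242 RPKM for *Scd1* to 0.44 RPKM for *Pnpla3* in WT, a range much wider than any difference between genotypes.

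Of the 2 transcription factors 1 was called, against 3.11% of all genes tested, and with 2 genes a single call makes the share. The difference between their changes was not tested. *Srebf1*, the source of SREBP-1c and SREBP-1a, was at 68.8, 66.3 and 68.2 CPM in WT and 64.1, 68.8 and 68.0 CPM in C75S, and the genotypes overlapped (log2 fold change -0.02, SE 0.06, edgeR adjusted p = 0.947). A gene count does not separate its isoforms. *Mlxipl* was at 212, 198 and 204 CPM in WT and 184, 178 and 172 CPM in C75S. All C75S libraries were below all WT libraries, and *Mlxipl* fell by 13.1% (log2 fold change -0.20, SE 0.05, edgeR adjusted p = 0.0205). Its call was lost without WT replicate 1 (0.0745) or 3 (0.0575), or C75S replicate 2 (0.0637) or 3 (0.114). The count of *Mlxipl* does not separate transcripts from its 2 RefSeq starts either.

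The 250 bases before each RefSeq start of *Mlxipl* are shown because it is a called gene with a usable promoter. Of the 4 called genes with the smallest p-values, *Fads2* and *Mid1ip1* had windows that overlap an annotated exon, and *Scd1* had no entry in the table used. The plus strand of chromosome 5 is given in GRCm38.p6, with motif matches in capitals. The upstream start follows chr5:135089640-135089889, and the downstream start, inside the gene, follows chr5:135106641-135106890.
Mlxipl upstream start: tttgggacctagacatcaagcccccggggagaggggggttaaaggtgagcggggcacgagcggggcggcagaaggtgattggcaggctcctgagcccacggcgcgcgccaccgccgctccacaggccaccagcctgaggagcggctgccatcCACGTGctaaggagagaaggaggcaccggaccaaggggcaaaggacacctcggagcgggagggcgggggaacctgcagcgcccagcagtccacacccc
Mlxipl downstream start: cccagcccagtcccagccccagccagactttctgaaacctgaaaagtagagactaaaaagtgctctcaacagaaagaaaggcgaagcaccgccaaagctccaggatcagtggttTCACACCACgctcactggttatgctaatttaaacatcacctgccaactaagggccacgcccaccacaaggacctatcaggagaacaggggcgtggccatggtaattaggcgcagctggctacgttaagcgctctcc
The upstream window holds an E-box, CACGTG, that begins 98 bases before the start, and the downstream window a sterol response element, TCACNCCAC, that begins 136 bases before it. Both strands were searched over the 300 bases that the promoter table gives for each start. The sterol element was found in 1 of the 37 promoters of these genes and in 1.24% of 32851 promoters of all genes. The E-box was found in 6 of the 37, those of *Abca1*, *Elovl5*, *Lpin2*, *Lpin3*, *Mlxipl* and *Slc25a1*, and in 7.15% of all. The carbohydrate response element, searched as 2 E-boxes CACGTG with 5 bases between them, had 0 matches among all promoters. A pattern this strict could not tell these genes from others. The LXR element, searched as 2 copies of AGGTCA with 4 bases between them, had 0 among the 37 and 0.0152% among all, too few for a comparison. The table holds promoters of 27 of the 35 genes. It has none for *Scd1*, *Scd2*, *Fads1*, *Gpat4*, *Dgat1*, *Dgat2*, *Elovl3* and *Abcg1*, so these genes were not searched for any motif.

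Of 16 further genes that control this program (the LXR genes *Nr1h3* and *Nr1h2*, their RXR partners, the SREBP escort and proteases, and cofactors), all were tested and 1 was called, *Insig2*. That is 6.25%, where a single gene makes the share, against 3.11% of all genes tested. Over this and the 4 other lists of pathway genes that follow, 5 of 55 tested genes were called, which is 9.09%. *Insig2*, whose product retains the SREBP complex in the endoplasmic reticulum, fell to 299 ± 20.9 CPM in C75S, against a WT level of 347 ± 2.5 CPM (SD, n = 3 each, log2 fold change -0.21, edgeR adjusted p = 0.022). Its relative *Insig1* was at 59.2 CPM in WT and 66.0 CPM in C75S, with overlapping libraries (edgeR adjusted p = 0.238). The median log2 fold change of the 16 was -0.01. Dropping any library but C75S replicate 3 ended the call of *Insig2*, with adjusted p-values from 0.0545 to 0.124.

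Genes that supply acetyl-CoA and NADPH gave no call among 4, against 3.11% of all genes tested. *Slc25a1*, which carries citrate out of mitochondria, was at 217, 225 and 229.9 CPM in WT and 228, 244 and 239 CPM in C75S. *Acly*, which cleaves that citrate to acetyl-CoA, was at 199.6, 201 and 216 CPM in WT and 210.3, 224 and 219 CPM in C75S. *Acss2*, which makes acetyl-CoA from acetate, was at 59.6, 55.0 and 63.1 CPM in WT and 60.9, 67.5 and 63.4 CPM in C75S. In each of these the C75S mean was higher, by 5.67% to 7.98%, but the libraries overlapped (edgeR adjusted p from 0.479 to 0.52). Malic enzyme, *Me1*, went the other way at 114, 123 and 126 CPM in WT and 114, 111 and 105 CPM in C75S. Every C75S library was below every WT library, the nearest at 113.7 against 114.3 CPM, and *Me1* was not called (log2 fold change -0.14, SE 0.05, edgeR adjusted p = 0.212). Its transcript is 98.5% identical to *Gm7049* over 1638 bases, so reads from that stretch may have been left out as multimapping.

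Of 9 other genes of NADPH and acetyl-CoA supply, 8 were tested and 2 rose, both of the pentose phosphate pathway, where 1.74% of all genes tested were called higher. *G6pdx*, glucose-6-phosphate dehydrogenase, rose from 15.2 ± 0.51 to 20.2 ± 1.93 CPM (SD, n = 3 each, edgeR adjusted p = 0.018) and *Pgd*, 6-phosphogluconate dehydrogenase, from 322 ± 5.47 to 373 ± 26.7 CPM (edgeR adjusted p = 0.0269). The lactonase *Pgls* between them was at 61.9 CPM in WT and 62.3 CPM in C75S. The median log2 fold change of the 8 was 0.09. *G6pdx* was not called on unstranded counts (edgeR adjusted p = 0.284), where reads of the overlapping gene *Ikbkg* on the opposite strand are mixed in, and in the fits without any 1 library other than C75S replicate 2 (0.0504 to 0.119). *Pgd* lost it without WT replicate 2 (0.161) or 3 (0.0794), or C75S replicate 1 (0.135) or 2 (0.12).

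The enzymes of chain synthesis did not pass the test, while a cofactor did. *Fasn*, fatty acid synthase, was at 225, 230.2 and 239 CPM in WT and 228, 269 and 245 CPM in C75S, with C75S replicate 2 the highest (log2 fold change 0.10, SE 0.06, edgeR adjusted p = 0.491). *Acaca*, the cytosolic acetyl-CoA carboxylase, was at 21.4, 25.5 and 26.2 CPM in WT and 24.7, 24.9 and 24.5 CPM in C75S. *Acacb*, the carboxylase of the mitochondrial surface, was at 38.4, 37.1 and 40.9 CPM in WT and 40.1, 39.8 and 39.1 CPM in C75S. Both overlapped between genotypes (edgeR adjusted p = 0.96 and 0.899). *Acaca* shares 6118 bases at 99.2% identity with *Gm5182*, so its level is uncertain where reads there were left out as multimapping.

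*Mid1ip1* encodes MIG12, which promotes the polymerisation and activity of acetyl-CoA carboxylase. It was at 81.3, 82.3 and 76.9 CPM in WT and 91.95, 95.9 and 105 CPM in C75S. The lowest C75S library exceeded the highest WT library, and *Mid1ip1* rose by 21.7% (log2 fold change 0.28, SE 0.06, edgeR adjusted p = 0.00427). All 14 alternative fits called it, and their adjusted p-values reached 0.0438 at most. Its paralogue *Thrsp* (Spot14), a thyroid hormone-responsive gene of lipogenesis, was at 24.0, 21.2 and 20.99 CPM in WT and 19.4, 23.3 and 20.95 CPM in C75S and was not called (log2 fold change -0.05, SE 0.09, edgeR adjusted p = 0.878).

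No elongase was called among the 4 tested, against 3.11% of all genes tested. *Elovl6*, which takes palmitate to stearate, was at 99.4, 114 and 108 CPM in WT and 91.7, 107 and 112 CPM in C75S (edgeR adjusted p = 0.853), and 805 bases of it are 97.4% identical to *Gm11295*. *Elovl5*, which extends polyunsaturated chains after the desaturation by *Fads2*, was at 63.9, 68.6 and 72.8 CPM in WT and 74.9, 68.4 and 71.5 CPM in C75S (edgeR adjusted p = 0.708). *Elovl2*, which acts on the longer polyunsaturated chains, was at 50.7, 58.2 and 61.2 CPM in WT and 47.7, 58.1 and 55.0 CPM in C75S (edgeR adjusted p = 0.726). Replicate 1 was the lowest library of its genotype for *Elovl2* and *Elovl6*. *Elovl1*, for saturated very long chains, was at 94.6 ± 4.84 CPM in WT and 99.1 ± 3.41 CPM in C75S (SD, n = 3 each, edgeR adjusted p = 0.653).

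*Elovl3* did not pass the filter. It had 15, 2 and 8 counts in the WT libraries and 0, 1 and 2 counts in C75S, where a count of 0 allows up to 3 counts, 0.172 CPM in C75S replicate 1. Without the filter its adjusted p-value in edgeR was 0.149. Of 11 further genes of elongation and desaturation, 8 were tested and 0 were called, against 3.11% of all genes tested. None of the 8 had an unadjusted p-value under 0.05 in edgeR (13.4% of all genes did), and DESeq2 and limma-voom called 0. With 8 genes, a count of 0 cannot be told from the share of 3.11%. The 8 included the other enzymes of the elongation cycle, *Hsd17b12*, *Hacd3* and *Tecr*, at 182, 114 and 175 CPM in WT and 185, 113 and 173 CPM in C75S.

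Of the 4 desaturases 3 were called higher, where 1.74% of all genes tested were. *Scd1* and *Scd2* make monounsaturated from saturated fatty acids. *Scd1* was at 1131, 1229.9 and 1184 CPM in WT and 1391, 1361 and 1434 CPM in C75S, a rise of 18.1% (log2 fold change 0.24, SE 0.05, edgeR adjusted p = 0.012). *Scd2*, at a far lower level, was at 35.5, 32.7 and 37.3 CPM in WT and 43.4, 43.6 and 39.6 CPM in C75S, a rise of 19.9% (log2 fold change 0.26, SE 0.07, edgeR adjusted p = 0.0441). For both, the lowest C75S library was above the highest WT library. The ratio of *Scd1* to *Scd2* in RPKM was 37.7 ± 3.75 in WT and 37.1 ± 3.03 in C75S, so the balance between them differed by less than its spread. *Scd3* and *Scd4* had at most 0.19 CPM and were not tested.

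*Fads2* and *Fads1* carry out the earlier and the later desaturation in the synthesis of long polyunsaturated fatty acids. *Fads2* was at 184, 178 and 197 CPM in WT and 221, 226 and 249 CPM in C75S, a rise of 24.5% (log2 fold change 0.32, SE 0.05, edgeR adjusted p = 0.00078). It had the smallest p-value of the 31 tested, and its adjusted p-value stayed at or below 0.0186 in all 14 alternatives. *Fads1* was at 186, 189 and 203 CPM in WT and 206, 223 and 223 CPM in C75S. Its genotypes did not overlap but came close, at 203 against 206 CPM, and it was not called (log2 fold change 0.18, SE 0.05, edgeR adjusted p = 0.0623). *Fads3* and *Fads6*, relatives outside the 35, were at 205 and 122 CPM in WT and 205 and 124 CPM in C75S.

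The 4 desaturases lie in neighbouring pairs on chromosome 19. *Scd2* (44293674 to 44306864, plus strand of GRCm38) and *Scd1* (44394455 to 44407879, minus strand) are 87.6 kb apart. *Fads2* (10062765 to 10101746, minus strand) and *Fads1* (10182888 to 10196877, plus strand) are 81.1 kb apart. *Mtdh* is on another chromosome, 15. Summed over the 4 genes, desaturase transcripts made up 1536, 1629.7 and 1622 CPM in WT and 1862, 1853 and 1946 CPM in C75S. *Scd1* held 74.0% of that sum in WT, and without it the sums were 400 to 438 CPM in WT and 471 to 512 CPM in C75S. Each of the 4 genes was higher in every C75S library, so neither sum could overlap between genotypes, and the sums are no separate result.

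The count of called desaturases depended on the library set and, for *Scd2*, on the tool. With WT replicate 1 dropped, *Scd1* was not called (edgeR adjusted p = 0.0581). *Scd2* lost its call in DESeq2 (adjusted p = 0.0649) and without WT replicate 1 (0.0724) or 2 (0.237), or C75S replicate 1 (0.17) or 2 (0.175), so 1 desaturase was called without WT replicate 1. Among other settings, *Fads1* was called with library-size scaling (0.0284), with no filter (0.0396) and without C75S replicate 1 (0.0368) or WT replicate 3 (0.0412). The log2 fold changes of all 4 were positive in each of the 14 alternative fits.

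**Figure D4:**
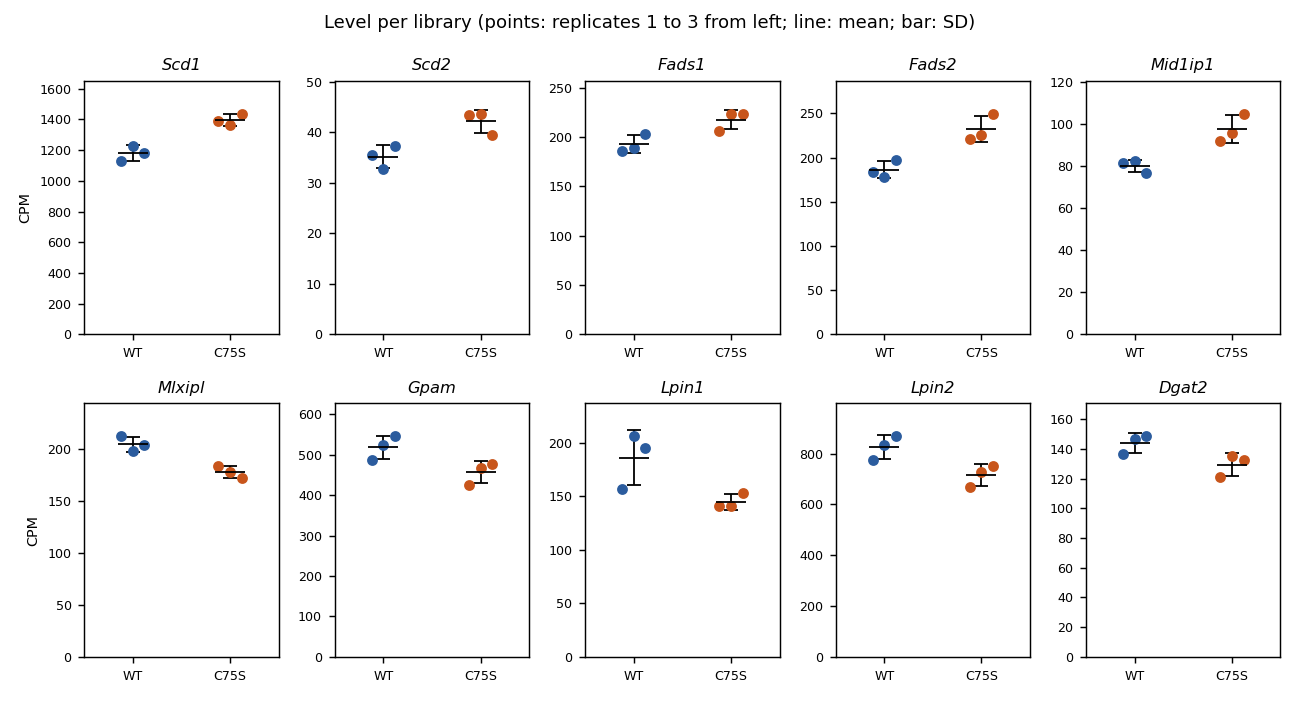
CPM in each library for 10 genes, with WT in blue and C75S in orange, the mean as a line and the SD as a bar, on axes that start at 0. The desaturases and *Mid1ip1* are higher in every C75S library, and *Mlxipl*, *Gpam*, *Lpin1*, *Lpin2* and *Dgat2* are lower in every C75S library. All 10 come from the 13 of 31 tested genes whose genotypes do not overlap, so the separation drawn follows from the choice of genes.

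Among the esterification genes *Lpin2* was the only call, 11.1% of the 9 tested, against 3.11% of all genes tested. *Gpam*, the mitochondrial glycerol phosphate acyltransferase that starts the pathway, was at 487, 523 and 545 CPM in WT and 425, 467 and 477 CPM in C75S. The genotypes did not overlap, and *Gpam* was not called (log2 fold change -0.18, SE 0.06, edgeR adjusted p = 0.0749). *Gpat4*, which does the same on the endoplasmic reticulum, was at 139, 146 and 136 CPM in WT and 132, 134 and 131 CPM in C75S (log2 fold change -0.09, edgeR adjusted p = 0.472). Of the acyltransferases of the next step, *Agpat3* was at 218, 219 and 224 CPM in WT and 200.4, 205 and 215 CPM in C75S (edgeR adjusted p = 0.417). *Agpat2*, whose loss causes lipodystrophy, was at 71.4 ± 4.09 CPM in WT and 69.2 ± 3.50 CPM in C75S (SD, n = 3 each, edgeR adjusted p = 0.826), and its libraries overlapped.

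Lipins remove the phosphate from phosphatidate to give diacylglycerol. *Lpin2*, the highest of them per length, was at 776, 834 and 868 CPM in WT and 668, 728 and 750.4 CPM in C75S. All C75S libraries were lower, and *Lpin2* fell by 13.4% (log2 fold change -0.21, SE 0.06, edgeR adjusted p = 0.0443). *Lpin1*, which is also a coactivator of PPAR-alpha, was at 157, 206 and 196 CPM in WT and 141, 141 and 154 CPM in C75S. WT replicate 1 lay near the C75S libraries. *Lpin1* had the largest difference of the 31 genes, with a log2 fold change of -0.36 (SE 0.09), and it missed the threshold (edgeR adjusted p = 0.0684). *Lpin3* was at 22.4 CPM in both genotypes (edgeR adjusted p = 0.996).

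*Dgat2* and *Dgat1* add the last acyl chain by unrelated enzymes. *Dgat2* was at 136, 147 and 148 CPM in WT and 121, 135 and 132 CPM in C75S, without overlap and without a call (log2 fold change -0.15, SE 0.05, edgeR adjusted p = 0.155). *Dgat1* was at 20.2, 20.6 and 18.5 CPM in WT and 20.1, 20.1 and 19.2 CPM in C75S (log2 fold change 0.00, SE 0.09, edgeR adjusted p = 0.993). Per length *Dgat2* was 7.23 ± 0.64 times as high as *Dgat1* in WT and 6.48 ± 0.47 times in C75S (SD, n = 3 each), with overlapping libraries. *Mogat1*, a monoacylglycerol acyltransferase that rises in fatty liver, had 0, 4 and 1 counts in WT and 0, 0 and 3 in C75S and was not tested.

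Summed over the 10 genes, transcripts of triglyceride assembly came to 2033, 2190.4 and 2223 CPM in WT and 1796, 1925 and 1969 CPM in C75S. Replicate 1 was the lowest library in each genotype, and the highest C75S library was below the lowest WT library. *Lpin2* held 38.4% and *Gpam* 24.1% of the WT sum. The other 8 genes summed to 769 to 834 CPM in WT and 703 to 742 CPM in C75S. The sum over all 35 genes overlapped between genotypes, at 5359 to 5731 CPM in WT and 5476 to 5809 CPM in C75S.

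**Figure D5:**
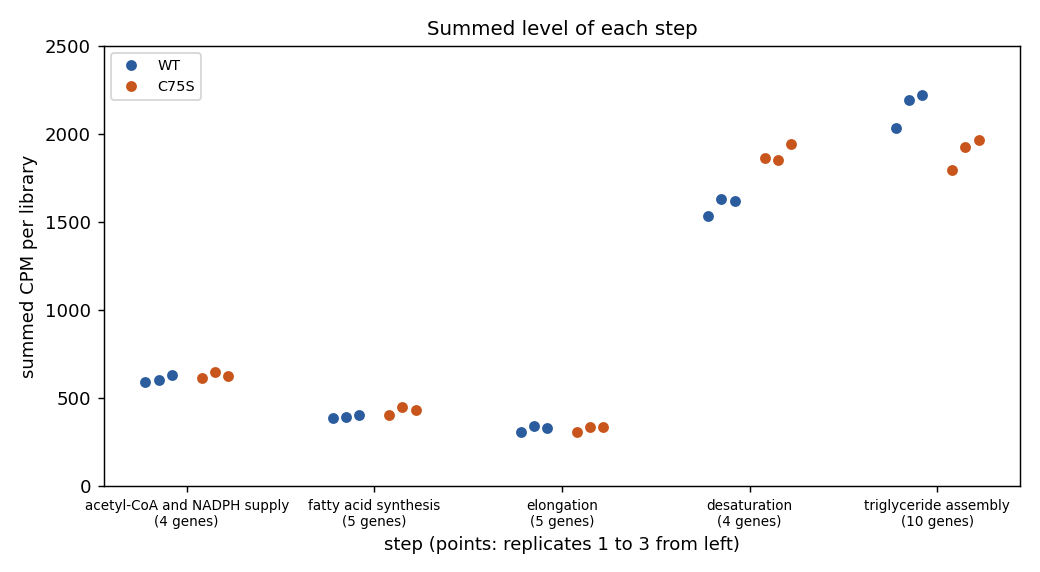
Summed CPM per library for 5 steps, WT in blue and C75S in orange, on an axis from 0. Desaturation is higher in every C75S library (1853 to 1946 against 1536 to 1629.7 CPM) and triglyceride assembly lower (1796 to 1969 against 2033 to 2223 CPM), while acetyl-CoA supply, fatty acid synthesis and elongation overlap.

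The number of called genes of triglyceride assembly ranged from 0 to 3. *Lpin2* was no longer called without WT replicate 2 (edgeR adjusted p = 0.192) or 3 (0.218), or C75S replicate 1 (0.205) or 2 (0.0804), and then no gene of the step was called. Without WT replicate 1, *Lpin1* (edgeR adjusted p = 5.13e-05) and *Gpam* (0.0395) were called as well. Among other settings, *Lpin1* was also called in DESeq2 (adjusted p = 0.0011) and with library-size scaling (edgeR adjusted p = 0.0177), and both genes without a filter (4.51e-09 and 0.0137). Of 15 other glycerolipid enzymes, 13 were tested and 1 was called (7.69%, against 3.11% of all genes). *Acsl1*, which activates fatty acids to acyl-CoA, fell from 157 ± 11.5 to 135 ± 9.76 CPM (SD, n = 3 each, edgeR adjusted p = 0.0402), although C75S replicate 3 (146 CPM) lay above WT replicate 1 (144 CPM). It lost its call without WT replicate 2 (0.207) or 3 (0.189), or C75S replicate 1 (0.18) or 2 (0.152). *Acsl5*, of the same family, was at 305 ± 6.59 CPM in WT and 344 ± 11.7 CPM in C75S, above every WT library but without a call (edgeR adjusted p = 0.0513), and it was called in 6 of 14 alternatives, DESeq2 and limma-voom among them. The median log2 fold change of the 13 was 0.05.

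*Pnpla3*, a lipid droplet protein whose human gene carries a well-known fatty liver variant, was close to the limit of detection. It had 9 to 17 counts per library and 0.68 ± 0.22 CPM in WT against 0.65 ± 0.14 CPM in C75S (SD, n = 3 each, log2 fold change -0.06, SE 0.44, edgeR adjusted p = 0.974). A difference was not detectable at this depth.

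Of the 4 LXR targets outside lipogenesis, 2 were expressed well enough to test and 0 were called, against 3.11% of all genes tested. In edgeR 1 of the 2 had an unadjusted p-value under 0.05 (13.4% of all genes did), and DESeq2 and limma-voom called 0. *Abca1*, the cholesterol exporter that lipidates apolipoprotein A-I, was at 102, 107 and 123 CPM in WT and 122, 120.1 and 131 CPM in C75S. WT replicate 3 lay above C75S replicates 1 and 2 (log2 fold change 0.16, SE 0.06, edgeR adjusted p = 0.191), and without it *Abca1* was called (0.0247). *Lpcat3*, which puts polyunsaturated chains into phosphatidylcholine, was at 116, 127 and 119 CPM in WT and 121, 120.1 and 121 CPM in C75S, and the difference was smaller than its error (log2 fold change 0.00, SE 0.05, edgeR adjusted p = 0.988).

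The other 2 were near the floor. *Abcg1*, which exports sterol to lipoproteins mainly in macrophages, had 1, 8 and 2 counts in WT and 7, 8 and 7 in C75S. *Mylip*, the ubiquitin ligase that removes the LDL receptor, had 0, 14 and 9 counts in WT and 2, 6 and 11 in C75S. Without the filter neither was called (edgeR adjusted p = 0.732 and 0.952).

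Of 10 other LXR targets, all tested, 1 was called, against 3.11% of all genes. *Apoc1*, a small apolipoprotein of the *Apoe* cluster, rose from 469 ± 12.7 to 547 ± 28.9 CPM (SD, n = 3 each, log2 fold change 0.22, edgeR adjusted p = 0.017). *Apoe* was at 4371, 4669.9 and 4719 CPM in WT and 4688, 5178 and 5089 CPM in C75S and was not called (edgeR adjusted p = 0.384). The sterol transporters *Abcg5* and *Abcg8* were at 9.83 and 9.02 CPM in WT and 11.8 and 10.3 CPM in C75S, *Abcg5* without overlap, and neither was called (edgeR adjusted p = 0.309 and 0.609). The list was mixed in direction, with 6 positive and 4 negative log2 fold changes and a median of 0.10. The largest in size was that of the phospholipid transfer protein *Pltp*, at 2.37 ± 0.91 CPM in WT and 1.39 ± 0.47 CPM in C75S (SD, n = 3 each), with overlapping libraries and no call (log2 fold change -0.77, SE 0.33, edgeR adjusted p = 0.271). The lipase *Lpl* (-0.65), the bile acid enzyme *Cyp7a1* (-0.13) and *Tmem135* (-0.04) were the other negative ones, none of them called. *Apoc1* lost its call without C75S replicate 3 (0.113), WT replicate 2 (0.102) or WT replicate 3 (0.0892).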

How the data were processed

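Per the submitters' processing notes, Trim Galore 0.6.6, STAR 2.7.9a and edgeR 3.36.0 were used with mm10 or GRCm38; the annotation release is not given in the sources used here. The deposited values are raw read counts per Ensembl gene in 3 columns (unstranded and each strand), 1 file per library, made by the authors and not normalized. Per the labels' protocols, a TruSeq RNA library kit and a HiSeq3000 sequencer were used. Reverse-strand gene totals were 32.9 to 33.9 times the forward ones, so the reverse column was used. The summary rows (unmapped, multimapping, no feature, ambiguous), 28.8% to 30.2% of reads, were left out. Multimapping reads (18.0% to 18.5%) were not counted to genes.

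Genes were filtered with filterByExpr (minimum count 10, total 15), scaled with TMM and tested with edgeR 4.0.16 in R 4.3.3 (robust quasi-likelihood, two-sided, genotype only), with Benjamini-Hochberg adjustment over 12741 genes. A standard error is the log2 fold change over the square root of F. CPM and RPKM use TMM-scaled library sizes and GENCODE M21 exon lengths. Promoters are RefSeq's (GRCm38.p6). Near-identical transcripts were sought with BLAST 2.17.0 (95% identity, 100 bases). The procedure was tested on simulated counts with changes larger than those of any called gene of the 35. Recovery of changes as small as the ones called here was therefore not tested. Alternatives were 2 scalings, DESeq2 1.42.0, limma-voom (3.58.1), 2 filters, unstranded counts, a replicate block and leaving out each library. Within genotypes, chi-square per degree of freedom between libraries was 4.04 to 8.98, so no pair agreed within sampling noise. The genes, lists and naming rule (all 35, called list genes, up to 5 a list) were chosen with earlier results of these data known. One list gene (*Trf*) was matched through a synonym. Genes named among the lists without a call were chosen after their values were seen.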

Additional observations from a re-analysis of the deposited data

How the results depend on the processing

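Over 31 tested genes and 14 alternative fits, 405 of 433 values kept their direction or stayed uncalled on their side of the threshold. A call was lost in 14 and gained in 14, and none that was called in any fit changed sign. Most of the 433 values belong to the 25 genes not called with all libraries, which had no call to lose. With all libraries, 6 to 9 genes were called, and the number called lower was 4 with no filter and 4 with the replicate block, against 2. Leaving out a library gave 201 to 355 calls over all genes (396 with all), 3 to 6 among the 31, of which 2 to 6 higher and 0 to 3 lower, and 0 to 4 among the 61 further pathway genes (5 with all). The median log2 fold change of the 31 ranged from -0.00974 to 0.0387 (the latter without WT replicate 2). Nothing in the labels says that the replicate numbers pair the libraries. Same-numbered deviations correlated at 0.02, -0.04 and 0.03, and C75S replicates 1 and 2 correlated better with another number. Correlations over so few libraries cannot exclude a pairing. With the replicate block 480 genes were called, 9 among the 31: the 6 called without it plus *Lpin1* (edgeR adjusted p = 0.000765), *Gpam* (0.0279) and *Fads1* (0.0412). With the longest transcript as the length, 2 of the 10 highest genes were replaced. Depth left 4 of the 35 genes untested, each with 15 counts or fewer in every library.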

Other observations

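Balances between related genes were compared as ratios of RPKM within each library, for 13 pairs and without a test. In 3 of them the genotypes did not overlap, where 18.0% of all single genes tested did not, and the share over ratios in general was not computed. Each of the 3 pairs holds a called gene (*Fads2*, *Mlxipl* or *Mid1ip1*), so the ratios are no separate result. *Fads2* over *Fads1* was 1.38 to 1.44 in WT and 1.48 to 1.63 in C75S. *Mlxipl* over *Srebf1* was 3.04 to 3.14 in WT and 2.57 to 2.91 in C75S. *Thrsp* over *Mid1ip1* was 0.25 to 0.29 in WT and 0.19 to 0.24 in C75S. In the other 10, among them *Gpam* over *Gpat4* and *Lpin2* over *Lpin1*, the libraries overlapped.

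*Acss2* was the gene of the 35 with the most reads on the opposite strand. The forward-strand column held 23.2% of all its reads, a mean of 18.8 CPM in WT and 18.4 CPM in C75S with overlapping libraries. The annotation places *Gss*, *Ggt7* and *Acss2os* on that strand, overlapping its span.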
